A study of Mus musculus with 6 samples.

Results

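The genes described here are 36 genes of protein folding in the endoplasmic reticulum (ER) and of the unfolded protein response, out of 23044 genes present on both array designs of the study. They were taken as a named list, and all 36 were found by their gene identifiers in the authors' deposited table of gene values. By role, 20 are chaperones and disulfide enzymes that fold proteins, 7 belong to the pathway that degrades misfolded proteins, and 9 are stress sensors and their effectors. RNA came from cells of transgenic mice in which the smooth muscle actin (Acta2) promoter drives GFP, sorted as negative for CD45 (white blood cells) and CD31 (endothelium). Skin cells were SMA-GFP+ cells of the dermis, with low reporter signal and called fibroblast-like in the labels (n = 3 arrays). Wound cells were SMA-GFP+++ cells from wounds 7 days after injury, with high signal and called myofibroblasts (n = 3 arrays). In each group 2 arrays were of Agilent design 026655 and 1 of design 028005. Reporter level and injury cannot be told apart, because high-reporter skin cells and low-reporter wound cells were not measured. The labels give neither age nor strain. They also do not say whether RNA was pooled or whether the 3 arrays of a group hold different animals, so the spread that the tests use may be technical.

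Proteins bound for the cell surface and the extracellular matrix, including procollagens, fold in the ER. Hsp70-type and lectin chaperones hold the chains while protein disulfide isomerases form and exchange their disulfide bonds. When unfolded chains accumulate, the sensors IRE1 (Ern1), PERK (Eif2ak3) and ATF6 signal through the transcription factors XBP1, ATF4 and cleaved ATF6. These raise the transcripts of chaperones and of the degradation machinery, and a branch through CHOP (Ddit3) is linked to cell death. Splicing of Xbp1 and activation of the sensors are not read by these probes, which measure total transcript.

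The promoters are shown because the response acts through short sites in them. The ER stress element, bound by ATF6 together with the CCAAT-binding factor NF-Y, reads CCAAT, 9 spacer bases, CCACG. It was searched on both strands in RefSeq windows (GRCm38.p6) from 250 bases before to 50 after each annotated start, and 31 of the 36 genes had a window (Atf6, Derl1, Hspa13, Hyou1 and Manf had none). The element was in a window of 10 of these 31 genes (8 of 17 folding genes, 2 of 6 degradation genes and 0 of 8 sensors and effectors), against 37 of 27025 genes in the whole table (0.137%). Each is printed below 5′ to 3′ in the sense of the element with 10 bases on either side, and the capitals mark CCAAT and CCACG.
Hspa5 (chr2:34772015-34772053, + strand): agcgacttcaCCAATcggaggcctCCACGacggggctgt
Hsp90b1, outer (chr10:86705628-86705666, - strand): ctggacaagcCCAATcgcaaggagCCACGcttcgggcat
Hsp90b1, inner (chr10:86705523-86705561, + strand): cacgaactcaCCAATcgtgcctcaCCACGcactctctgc
Pdia6 (chr12:17266481-17266519, + strand): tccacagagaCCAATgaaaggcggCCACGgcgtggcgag
Calr (chr8:84847065-84847103, + strand): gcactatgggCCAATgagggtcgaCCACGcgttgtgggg
Creld2 (chr15:88819510-88819548, - strand): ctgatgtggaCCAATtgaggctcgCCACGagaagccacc
Canx (chr11:50325790-50325828, - strand): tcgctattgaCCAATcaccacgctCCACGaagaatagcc
Dnajc3 (chr14:118937817-118937855, + strand): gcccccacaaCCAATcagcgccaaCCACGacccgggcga
Ero1b (chr13:12565672-12565710, - strand): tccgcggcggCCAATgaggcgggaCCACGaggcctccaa
Derl3 (chr10:75893232-75893270, - strand): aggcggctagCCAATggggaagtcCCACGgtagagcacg
Syvn1 (chr19:6046522-6046560, + strand): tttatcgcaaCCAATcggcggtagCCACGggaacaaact

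The part CCACG alone was in windows of 26 of the 31 genes, 16 of 17 folding genes among them, and of 35.5% of all genes. CCAAT alone was in those of 24 of the 31 and of 41.1% of all genes. Both are parts of the full element, so these counts overlap with it. The UPR element TGACGTGG was found for Txndc5 only (0.714% of all genes). The C/EBP-ATF element that ATF4 binds was searched as TTGCATCA, its reverse complement TGATGCAA, or TGATGNAAT. It was found for Chac1 and Herpud1 (1.89% of all genes). The sites of these 3 genes are printed with 10 bases on either side and the motif in capitals.
Txndc5 (chr13:38528035-38528062, - strand): gcctcgccgcTGACGTGGcgctagccgc
Chac1 (chr2:119351039-119351066, + strand): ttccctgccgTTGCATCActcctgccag
Herpud1 (chr8:94386307-94386334, + strand): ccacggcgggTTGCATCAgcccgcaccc
A match is a string of letters in a window and not a measured binding site. Forms of the ER stress element with a spacer of another length, with CCAAT inverted relative to CCACG, or with mismatches were not searched. Of the 10 genes with the full element, 4 rose in wound cells, 1 fell and 5 did not pass the test described next. Of the 21 genes whose window lacked this exact form, 9 rose, a similar share, and 18.5% of all tested genes did. Some of these 21 may hold a form that was not searched.

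**Figure D1:**
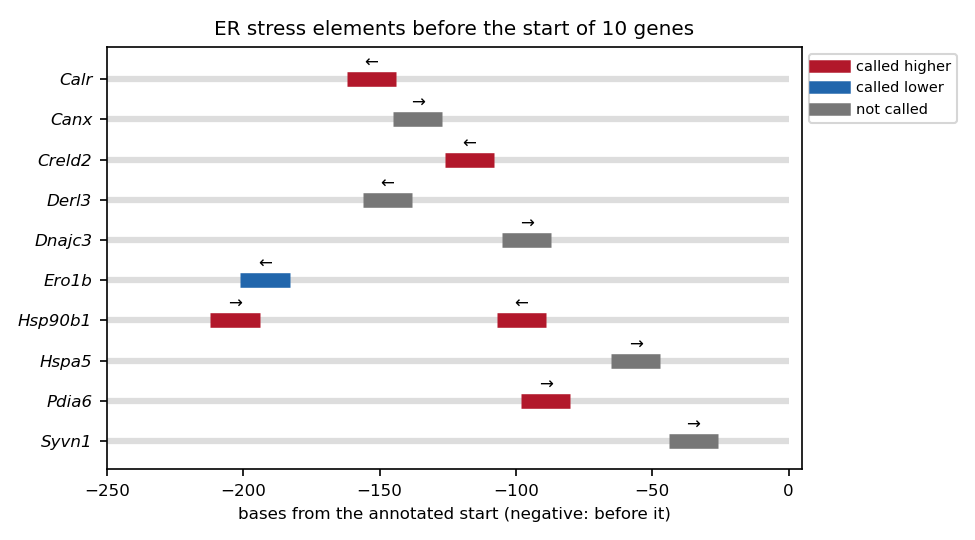
Positions of the 11 ER stress elements found before the annotated start of 10 genes, in bases from the start (x axis, negative before it). Arrows give the direction from CCAAT to CCACG relative to the gene, and colours give the gene's call in wound against skin cells: 4 higher (Calr, Creld2, Hsp90b1, Pdia6), 1 lower (Ero1b) and 5 not called.

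Wound cells had higher levels of 11 of 20 folding genes (55.0%), with the 6 protein disulfide isomerases of the 36 among them. Of 9 stress sensors and effectors 1 rose and 1 fell (11.1% each, against 18.5% and 15.6% of all tested genes). The difference between the roles was not tested. Over all 36 genes, 14 rose in wound cells, 3 fell and 19 did not pass the threshold. Among all 16738 genes tested 34.1% were called, 18.5% higher and 15.6% lower, so the 14 of 36 (38.9%) called higher stood above the background and the 3 of 36 (8.33%) called lower below it. The test was limma's moderated test of the wound minus skin difference, fitted beside a term for array design, and a gene was called at a Benjamini-Hochberg adjusted p under 0.05 over all tested genes. Levels are log2 of the processed spot intensity minus the array's 75th percentile. They are read only within a gene and a design, since the designs carry different probe sets. All 36 genes were well above background on all 6 arrays, so none entered through a filter.

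By role, 11 of 20 folding genes rose and 1 fell (55% and 5%). Of 7 degradation genes 2 rose and 1 fell (28.6% and 14.3%), and of 9 sensors and effectors 1 rose and 1 fell (11.1% each). Of all tested genes 18.5% were called higher and 15.6% lower, and whether the degradation shares differ from these was not tested. The median log2 difference was 0.51 for folding genes, 0.39 for degradation genes and 0.23 for sensors and effectors, against 0.04 for all genes tested. Within pairs 1, 2 and 3 the folding median was 0.62, 0.44 and 0.46, and that of sensors and effectors 0.28, -0.03 and 0.37. The wound arrays lay above the skin arrays within both designs for 22 of the 36 genes, where 31.8% of all tested genes did so. Increases of at least 2-fold were found for 4 of the 36 (Pdia5, Pdia4, Chac1 and Txndc5, with P4hb just under), a share near the 10.2% of all tested genes.

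**Figure D2:**
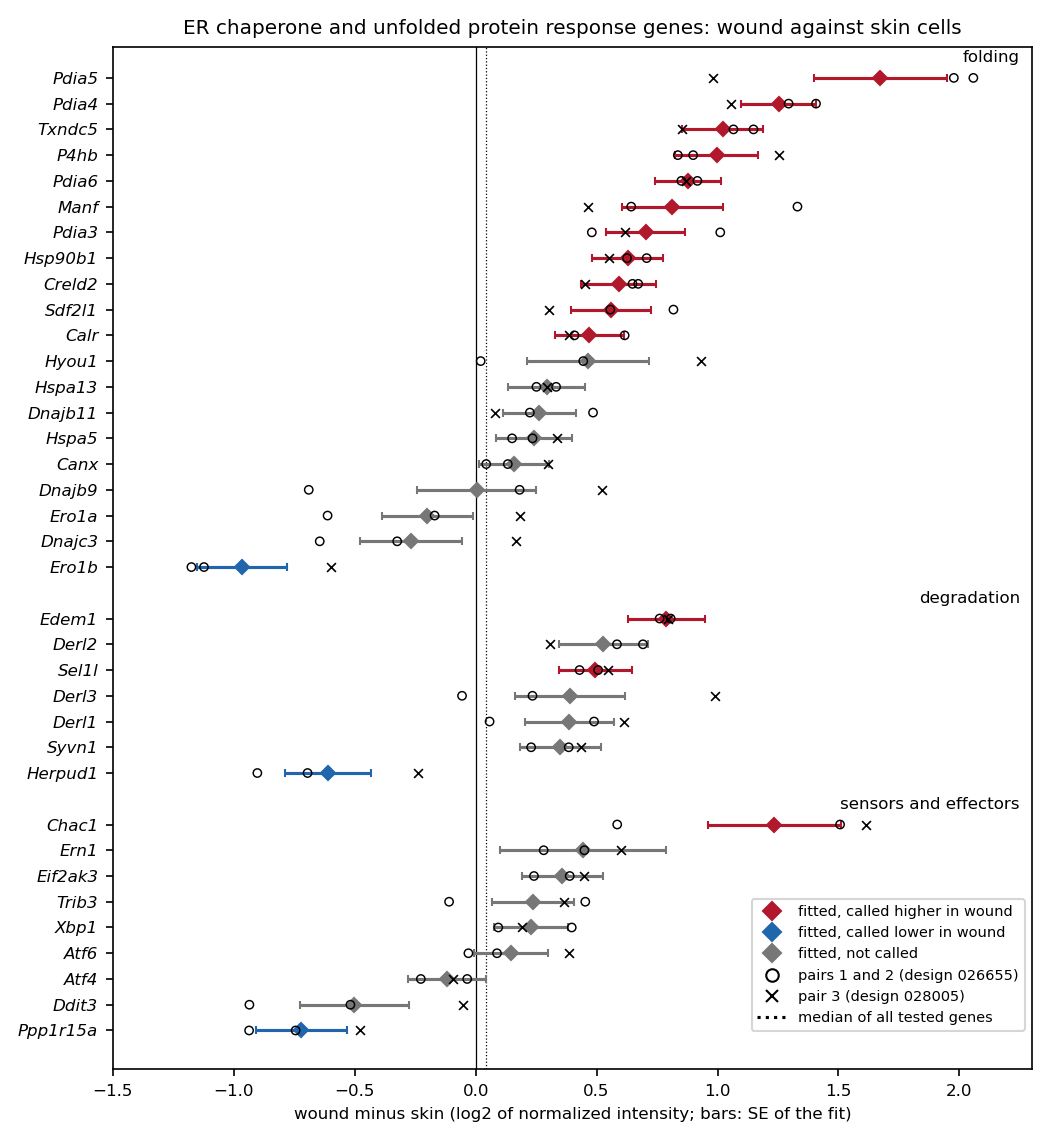
Wound minus skin difference of each of the 36 genes on the log2 scale (x axis), grouped by role. Diamonds are fitted differences with their SE (n = 3 arrays per group), circles and crosses are the single pairs of arrays, and the dotted line is the median of all tested genes (0.04). The disulfide isomerases Pdia5, Pdia4, Txndc5, P4hb and Pdia6 head the folding group, and Ero1b, Herpud1 and Ppp1r15a are the 3 genes called lower.

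Fewer genes were called when an array was left out. Against 14 called higher with all arrays, 6 were without skin replicate 1, 8 without skin replicate 2, 7 without skin replicate 3, 7 without wound replicate 1, 10 without wound replicate 2 and 7 without wound replicate 3. With no term for the array design limma called 0 of them higher, or 3 at an unadjusted p under 0.05. Calls over all tested genes, in either direction, also fell, from 5701 to between 3755 and 5023 with 1 array left out. With no array design term they fell to 1765. Whether the listed genes lost calls more often than all tested genes was not tested. Pdia4, Pdia5, P4hb, Txndc5 and Ero1b were called in each of the 13 distinct alternative fits that kept the array design term or used 1 design alone, and Pdia6 and Edem1 in 12 of the 13. Leaving out either array of design 028005 is the same fit as design 026655 alone and was counted once. The other 10 called genes were called in between 2 (Calr) and 11 (Chac1) of them, with no change of sign.

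Among the folding genes are 6 protein disulfide isomerases, a subgroup formed after its values were seen. These 6 rose, with a median log2 difference of 1.01. Not all of the family rose. Of 11 related genes outside the 36, also grouped after their values were seen, 2 rose (Erp27 and Erp29), 2 fell (Tmx3 and Txndc16) and 7 did not pass the threshold. These shares are near those of all tested genes (18.5% higher and 15.6% lower), and the difference between the groups was not tested. Pdia5, an ER disulfide isomerase, had levels of 0.70 and 0.23 in skin cells and 2.68 and 2.29 in wound cells on design 026655, and of 2.70 and 3.68 on design 028005. It rose 3.19-fold (log2 1.67, SE 0.28, adjusted p = 0.00512), and every wound array lay above the skin arrays of its design. The difference was 2.02 on design 026655 and 0.98 on design 028005, and whether the designs differ was not tested. Pdia4, a multi-domain isomerase also called ERp72, stood at 0.21 and 0.29 in skin cells and at 1.51 and 1.70 in wound cells on design 026655. On design 028005 it stood at 1.31 and 2.37. Pdia4 rose 2.38-fold (log2 1.25, SE 0.15, adjusted p = 0.00158), and the groups did not overlap within either design.

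Txndc5, an isomerase with several thioredoxin domains, read 1.68 and 1.47 in skin cells against 2.83 and 2.53 in wound cells on design 026655, and 2.61 against 3.47 on design 028005. It rose 2.03-fold (log2 1.02, SE 0.17, adjusted p = 0.00496), with no overlap within a design. P4hb is both an isomerase and the beta subunit of the collagen prolyl hydroxylase. Its level was 4.49 and 4.22 in skin cells against 5.33 and 5.12 in wound cells on design 026655, and 4.81 against 6.07 on design 028005. P4hb rose 2.00-fold (log2 1.00, SE 0.17, adjusted p = 0.00618), again without overlap. The last pair of the group were Pdia6, which rose by a log2 of 0.88 (SE 0.14), and Pdia3, the partner of the lectin chaperones, which rose by 0.70 (SE 0.16). Pdia3 was called in 9 of the 13 alternatives. It lost its call, among others, without skin replicate 1 (adjusted p = 0.0939), skin or wound replicate 3 (0.0536) or wound replicate 1 (0.0648). The authors' deposited table gave 1.08 for Pdia6, with an adjusted p of 0.0552 there.

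**Figure D3:**
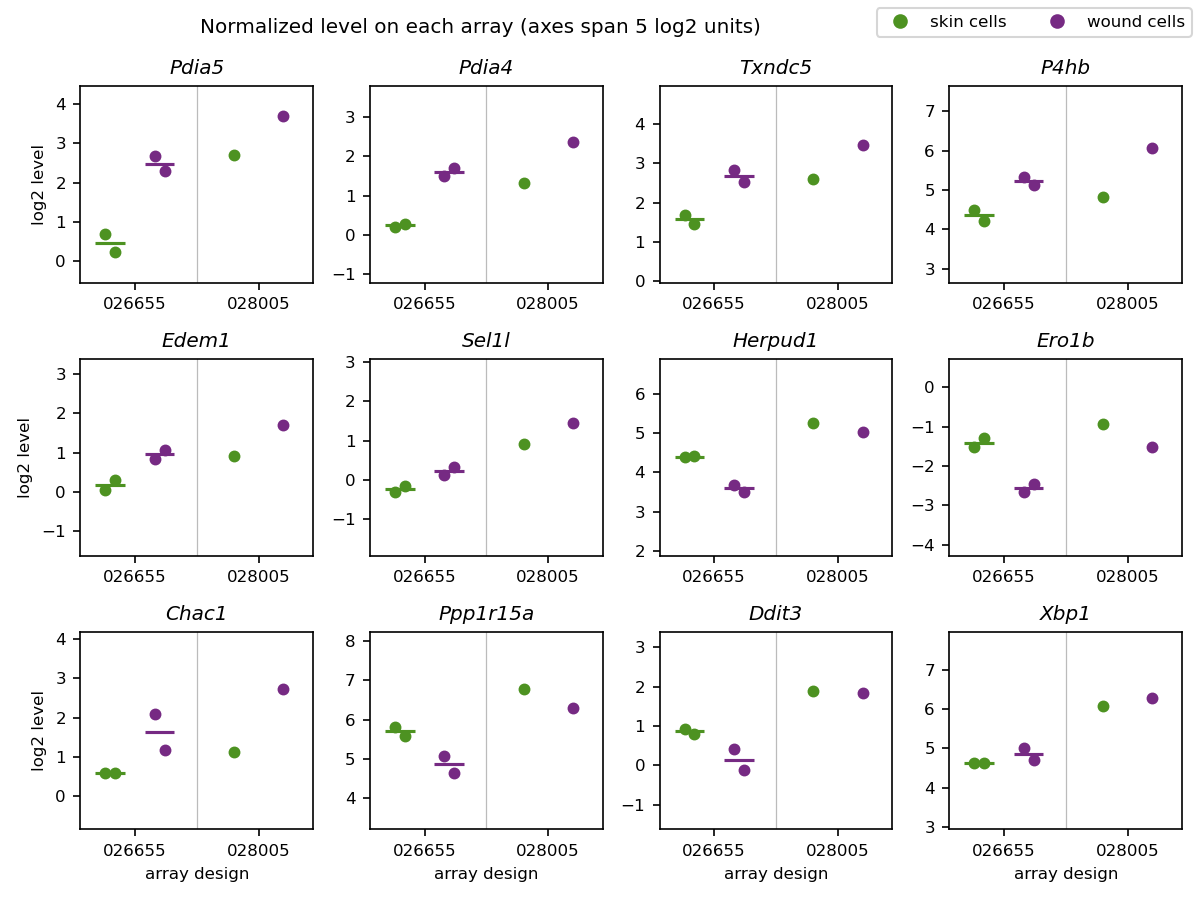
Normalized log2 level of 12 genes on each array (y axis), split by array design (x axis), with skin cells in green and wound cells in purple. Points are single arrays and short lines are means of 2 arrays. Every wound point of Pdia5, Pdia4, Txndc5, P4hb, Edem1, Sel1l and Chac1 lies above the skin points of its design, and every wound point of Herpud1, Ero1b and Ppp1r15a lies below them.

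The Ero1 oxidases supply the isomerases with oxidizing power. Ero1b (Ero1lb on the list) was chosen for full values after they were seen. It stood at -1.53 and -1.28 in skin cells against -2.65 and -2.46 in wound cells on design 026655, and at -0.92 against -1.52 on design 028005. Ero1b fell 1.95-fold (log2 -0.97, SE 0.19, adjusted p = 0.00945), and the groups did not overlap within a design. Ero1a (Ero1l on the list) did not pass the threshold (log2 -0.20, SE 0.19, adjusted p = 0.453), and its sign differed between the designs (-0.39 on 026655 and 0.18 on 028005). Of 5 other ER oxidases and peroxidases outside the 36, grouped after their values were seen, 4 rose (Qsox1, Prdx4, Gpx7 and Gpx8), and Qsox2 did not pass the threshold. Of all tested genes 18.5% rose, and a relation of this group to the fall of Ero1b was not tested.

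Of the chaperones proper, Hsp90b1, the ER form of Hsp90 also called GRP94, rose 1.55-fold (log2 0.63, SE 0.15, adjusted p = 0.0186). The call was lost without skin replicate 1 (adjusted p = 0.0958), skin replicate 2 (0.0532), or skin or wound replicate 3 (0.0542). The lectin chaperone Calr rose 1.38-fold (log2 0.47, SE 0.14, adjusted p = 0.0465), a call that held in 2 of the 13 alternatives and was lost whichever array was left out (adjusted p 0.0722 to 0.188). With the replicate number as a block it was 0.0619. Its membrane-bound relative Canx did not pass the threshold (log2 0.16, SE 0.14). Hspa5, the central ER Hsp70 known as BiP and a standard readout of the response, read 6.14 and 6.40 in skin cells against 6.38 and 6.55 in wound cells on design 026655, and 7.31 against 7.64 on design 028005. Its groups overlapped on design 026655 and it did not pass the threshold (log2 0.24, 95% interval -0.14 to 0.62, adjusted p = 0.284). Hyou1, which exchanges nucleotide on BiP, and Hspa13, another Hsp70 relative, had log2 differences of 0.47 and 0.29 without passing it.

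None of the 3 BiP co-chaperones of the J-protein class passed the threshold. The log2 difference was 0.26 for Dnajb11, -0.27 for Dnajc3 and 0.00 for Dnajb9, whose sign turned negative with, among others, normexp correction (-0.15), averaging over its probes (-0.17) and in the authors' deposited table (-0.23). Dnajb9 and Dnajc3 also differed in sign between the designs, with -0.25 and -0.48 on 026655 against 0.52 and 0.17 on 028005. Of other ER stress-inducible proteins, Manf, a secreted BiP-binding factor, rose by a log2 of 0.81 (SE 0.21), Creld2 by 0.59 (SE 0.15), and Sdf2l1, a partner of Dnajb11, by 0.56 (SE 0.17). Manf was called in 9 of the 13 alternatives, Creld2 in 5 and Sdf2l1 in 4. Manf lost its call, among others, without skin replicate 1 (adjusted p = 0.107), skin replicate 2 (0.0760) or wound replicate 1 (0.0653). Creld2 and Sdf2l1 lost theirs whichever array was left out, with adjusted p of 0.0617 to 0.134 and 0.0556 to 0.184, and Sdf2l1 also with the replicate number as a block (0.0562).

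In the degradation group Edem1, a lectin-like protein that selects misfolded glycoproteins, rose most. It read 0.04 and 0.31 in skin cells against 0.85 and 1.07 in wound cells on design 026655, and 0.92 against 1.71 on design 028005. Edem1 rose 1.73-fold (log2 0.79, SE 0.16, adjusted p = 0.0113), and its groups did not overlap within a design. The call was lost without skin replicate 1 (adjusted p = 0.0628). Sel1l is the adaptor of the ubiquitin ligase of the pathway, Syvn1 (HRD1). It stood at -0.31 and -0.16 in skin cells against 0.12 and 0.34 in wound cells on design 026655, and at 0.91 against 1.45 on design 028005. Sel1l rose 1.41-fold (log2 0.49, SE 0.15, adjusted p = 0.0464), a call that held in 4 of the 13 alternatives and was lost whichever array was left out (adjusted p 0.0679 to 0.180). Syvn1 itself did not pass the threshold (log2 0.35, SE 0.17, adjusted p = 0.162).

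Herpud1, a membrane scaffold of the same ligase complex, went the other way. Skin cells had levels of 4.38 and 4.41 and wound cells of 3.69 and 3.50 on design 026655, and 5.26 and 5.02 on design 028005. Herpud1 fell 1.53-fold (log2 -0.61, SE 0.18, adjusted p = 0.0402), below the skin arrays within both designs, by -0.80 on design 026655 and -0.24 on design 028005. The call held in 7 of the 13 alternatives. Among the losses, its adjusted p was 0.0591 with the replicate number as a block, 0.149 without skin replicate 1, 0.122 without skin replicate 2, 0.105 without wound replicate 1 and 0.0978 without wound replicate 2. The derlins, membrane proteins through which misfolded chains leave the ER, had log2 differences of 0.39 (Derl1), 0.53 (Derl2) and 0.39 (Derl3), none past the threshold. Derl3, the derlin of professional secretory cells, differed by 0.09 on design 026655 and 0.99 on design 028005.

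None of the 3 sensors passed the threshold. Eif2ak3 (PERK) stood at 0.89 and 1.25 in skin cells against 1.28 and 1.49 in wound cells on design 026655, and at 2.29 against 2.74 on design 028005 (log2 0.36, 95% interval -0.05 to 0.76). Ern1 (IRE1) read -0.78 and 0.09 against -0.50 and 0.54, and 0.15 against 0.76 (log2 0.44, 95% interval -0.39 to 1.28). For Atf6 the levels were -0.81 and -0.72 against -0.72 and -0.75, and -0.52 against -0.13 (log2 0.15, 95% interval -0.22 to 0.52). The wound arrays of Eif2ak3 lay above the skin arrays by a small margin, and those of Ern1 and Atf6 overlapped them on design 026655. The widest of these intervals, that of Ern1, leaves room for a difference of more than 2-fold.

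The transcription factors showed no called change either. Total Xbp1 stood at 4.62 and 4.62 in skin cells against 5.01 and 4.71 in wound cells on design 026655, and at 6.08 against 6.27 on design 028005 (log2 0.23, 95% interval -0.14 to 0.60, adjusted p = 0.298). Atf4, which is controlled largely at translation, read 7.41 and 7.26 against 7.38 and 7.03, and 8.42 against 8.32 (log2 -0.12, 95% interval -0.51 to 0.27). The wound arrays of Xbp1 lay slightly above the skin arrays within both designs, and those of Atf4 overlapped them on design 026655. Ddit3, encoding the pro-apoptotic factor CHOP, had levels of 0.93 and 0.81 against 0.41 and -0.13, and 1.88 against 1.83. Its wound arrays were the lower ones within both designs, by -0.73 on 026655 and -0.05 on 028005, but it missed the threshold (log2 -0.50, 95% interval -1.05 to 0.05, adjusted p = 0.138) and passed it only with normexp correction (adjusted p = 0.0429).

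Of the effectors, Ppp1r15a (GADD34), the phosphatase subunit that restores translation after PERK signalling, fell. It stood at 5.81 and 5.59 in skin cells against 5.07 and 4.65 in wound cells on design 026655, and at 6.78 against 6.30 on design 028005. Ppp1r15a fell 1.65-fold (log2 -0.72, SE 0.19, adjusted p = 0.0281), with no overlap within a design. The call held in 8 of the 13 alternatives. It was lost, among others, without skin replicate 1 (adjusted p = 0.118), skin replicate 2 (0.0696), wound replicate 1 (0.0519) or wound replicate 2 (0.0607). Chac1, a glutathione-degrading enzyme induced through ATF4, rose instead, from 0.59 and 0.59 to 2.10 and 1.18 on design 026655 and from 1.12 to 2.74 on design 028005. The increase was 2.35-fold (log2 1.23, SE 0.27, adjusted p = 0.0161). It was uneven, 1.51 in pair 1 and 0.59 in pair 2, and the call was lost without skin replicate 3 (adjusted p = 0.0682), wound replicate 3 (0.0682) or wound replicate 1 (0.0537). Trib3, a pseudokinase target of ATF4 and CHOP, read 0.68 and 0.90 against 1.14 and 0.79, and 1.19 against 1.55, with overlapping groups (log2 0.24, 95% interval -0.17 to 0.65).

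Genes of the same pathway outside the 36 were counted from fixed lists. Their shares stand beside 18.5% of all tested genes called higher and 15.6% called lower. Of 35 tested genes among 36 other ER folding and oxidation genes, 12 rose (34.3%) and 2 fell (5.71%), with a median log2 of 0.33. The peptidyl-prolyl isomerase Fkbp11 rose by 1.51 (SE 0.23) and Qsox1, a secreted sulfhydryl oxidase, by 1.46 (SE 0.24), while Txndc16 fell (log2 -1.01, SE 0.19). Other ER-associated degradation genes had 2 of 25 higher (8%) and 1 lower (4%), with a median of 0.25. Edem2 rose by a log2 of 0.81 (SE 0.20) and the mannosidase Man1b1 by 0.69 (SE 0.18). Svip, an inhibitor of the pathway, was at least 4.53-fold lower (adjusted p = 0.000198). Svip was detected on 0 of 3 wound arrays, so its fold is a bound: the skin mean was set against the dimmest detected signal of each wound array, or against Svip's signal where that was brighter. Other regulators of the response had 9 of 22 higher (40.9%) and 0 lower (median 0.40). They were led by the pro-apoptotic Bcl2l11 (log2 1.52, SE 0.18) and by Creb3l4 (log2 1.17, SE 0.18) and Creb3 (log2 0.94, SE 0.16), ER-bound transcription factors related to Atf6.

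Other targets of ATF4 and CHOP were split, with 10 of 23 higher (43.5%), 5 lower (21.7%) and a median of 0.27. Of all tested genes 18.5% were called higher and 15.6% lower. Stc2, which encodes stanniocalcin, was 17.5-fold lower (log2 -4.13, SE 0.35) and the stress cytokine Gdf15 5.75-fold lower (log2 -2.52, SE 0.27), while the lipoprotein receptor Vldlr was 5.77-fold higher (log2 2.53, SE 0.15). Chaperones of other compartments had smaller median differences than the ER folding genes (0.51). Of 22 cytosolic chaperones 1 rose, Stip1 (log2 0.65, SE 0.15), and 3 fell, with a median of -0.01. Their shares were 4.5% higher and 13.6% lower, the latter near that of all tested genes. Hspa1a, an inducible Hsp70, was 2.36-fold lower (log2 -1.24, SE 0.21) and Dnajb4 1.69-fold lower (log2 -0.76, SE 0.15). Among 13 mitochondrial chaperones and proteases 2 rose, Spg7 and Htra2 (log2 0.56 and 0.53, SE 0.14 and 0.15), and 0 fell, with a median of 0.16. The 15.4% called higher were near the share of all tested genes. The difference between these lists and the ER folding genes was not tested.

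**Figure D4:**
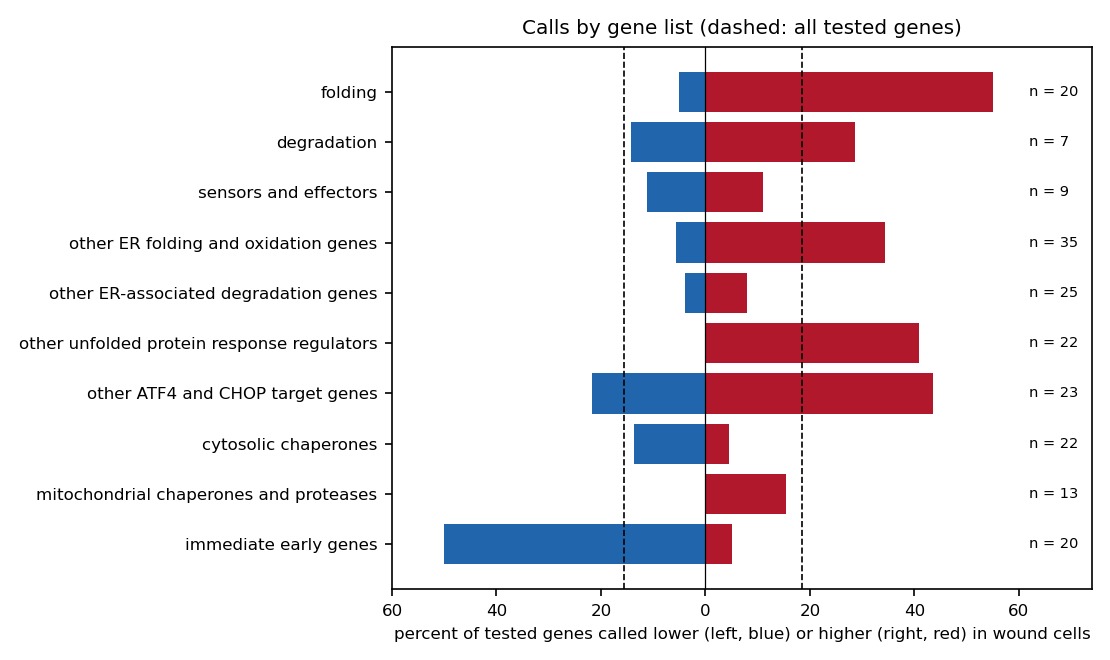
Share of tested genes called higher (right, red) or lower (left, blue) in wound cells, in percent, for the 3 roles, 4 other pathway lists, 2 lists of other chaperones and the immediate early genes, with the number tested. Cell type marker lists are not drawn. Dashed lines mark all tested genes (18.5% higher, 15.6% lower). Of folding genes 55.0% were called higher, and of immediate early genes 50.0% were called lower.

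Several measures moved with these differences, where 18.5% of all tested genes were called higher and 15.6% lower. Ranges of mean level here and in the next paragraph take in both designs, so they include any offset between the designs. Immediate early genes, which respond within minutes to stimuli such as tissue dissociation, were lower in wound cells for 10 of 20 genes and higher for 1, with a median of -0.81. Socs3, Fos and Dusp1 led them (log2 -1.95, -1.90 and -1.65, SE 0.17, 0.18 and 0.14). This is the direction of Ppp1r15a, Herpud1 and Hspa1a, and its part in those results was not tested. Markers of keratinocytes were lower for 9 of 10 genes. Their mean level ran from -0.13 to 0.69 on skin arrays and from -4.60 to -2.60 on wound arrays, and Krt1 and Cdh1 were not well above background on any wound array. Mural cell markers were higher for 8 of 10 genes (mean level -1.10 to 0.09 on skin and 1.83 to 3.20 on wound arrays).

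Plasma cells are rich in ER chaperones. Of 7 plasma cell markers Jchain, Tnfrsf17 and Pou2af1 were not well above background on any skin array but were so on 2, 1 and 1 of the 3 wound arrays, and of the 4 tested 1 rose (Sdc1) and 1 fell (Irf4), with mean levels of -3.91 to -2.58 on skin and -3.51 to -2.16 on wound arrays. The counts that follow stand beside 18.5% of all tested genes called higher and 15.6% called lower. White blood cell markers had 1 of 12 tested higher and 3 lower (mean levels -2.98 to -1.64 and -2.46 to -1.88). Endothelial markers had 4 of 9 higher and 0 lower (-3.63 to -1.58 and -2.11 to -0.91), and Schwann cell and melanocyte markers 0 of 8 higher and 4 lower (-3.75 to -1.32 and -4.34 to -3.39). The sort's own markers, Ptprc (CD45) and Pecam1 (CD31), had log2 differences of -0.21 and 0.37 without passing the threshold. Ptprc was detected on 3 skin arrays and 1 wound array, and Pecam1 on all arrays. Of 12 fibroblast markers, all detected on all arrays, 1 rose and 3 fell, and all 8 myofibroblast markers rose, Acta2 by 26.1-fold, the gene whose promoter drives the sorted reporter. The part of these other cell types in the results was not tested, and in sorted bulk RNA fewer cells of a type and less RNA per cell cannot be told apart.

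Each of the 36 genes was read by the same brightest probe on both designs, and 8 genes had further probes. For Pdia6 the second detected probe gave 0.87 on design 026655 and 1.14 on design 028005, near the 0.88 and 0.87 of the probe used. A dimmer further probe of Pdia6 was detected on 1 of the 6 arrays. Hspa13, Derl1 and Dnajb11 likewise kept their sign with a second probe on both designs. The second probe of Dnajb11 was dim, and was detected on 1 array of design 026655 and 2 of design 028005. Atf4, Derl2, Dnajb9 and Ern1 had a dimmer probe whose sign differed from that of the brightest one on at least 1 design, such as -0.60 and 0.29 for Atf4 on designs 026655 and 028005. None of these 4 genes was called.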

How the data were processed

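The authors extracted spot intensity values with Agilent Feature Extraction 10.7.3.1, per the file headers, whose design files name build mm9. The deposited intensity values are not scaled between arrays. The design text says that GeneSpring was used to join both array types into the authors' table at gene level. Its scale is unstated and was taken as log2, because differences within pairs 1, 2 and 3 of the deposited columns matched log2 scanner differences (slopes 1.00, 1.00 and 0.975, correlation across 16544 genes 0.99999, 0.99997 and 0.975). Its column medians run from -0.28 to -0.21, and its centring is not known.

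Control and outlier spots were left out and spots of a probe averaged. Probes were named through the gene identifiers of the authors' table, then by RefSeq accession (GRCm38.p6 names). Per gene and design the brightest probe was used. A gene was tested if all 3 arrays of either group had it well above background (16738 of 23044). The model was limma 3.58.1 in R 4.3.3 (lmFit and eBayes) with 3 residual and 6.25 moderated degrees of freedom. Its code was run on simulated data with independent noise, which does not check the spread on these arrays. Each design was 1 slide, so its term covers the slide too. Between 64.4% and 72.6% of spots were well above background, with 0 saturated. Correlations across genes were 0.970 to 0.989 within groups and 0.901 to 0.923 between them. Precision is limited by the number of arrays.

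The genes, lists and tests were chosen with earlier results of these data known. By the naming rule, all 36 genes may be named, full values were given for the 4 largest called differences per role and every sensor and effector, and up to 3 called genes were named of each other list. The array values of Ero1b and Hspa5 and the marker genes named fall outside this rule and were chosen after their values were seen. The same holds for the related isomerases, oxidases and peroxidases named beyond the 3 of their list. Normexp used the median spot signal, since the mean signal is not a column of the files, and protein sequence features were not analysed here. Tables and figures were made with Python 3.11.15, pandas 2.3.3 and matplotlib 3.10.9.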

Additional observations from a re-analysis of the deposited data

How the results depend on the processing

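The number of genes called in all, 5701, was 1765 with no array design term and 3195 at an adjusted p under 0.01, and 3755 to 5023 when 1 array was left out. Genes called higher among the 36, which were 14, numbered 8 with no filter on dim probes, 7 on design 026655 alone, 5 at an adjusted p under 0.01 and 6 to 10 with 1 array left out. The corresponding 11 folding genes were 6 with no filter, 6 on design 026655 alone and 5 to 8 with 1 array left out. With no array design term limma called 0 of the 36, 0 folding genes and 0 sensors and effectors higher (3, 2 and 1 at an unadjusted p under 0.05), and on design 026655 alone 0 sensors and effectors (1 unadjusted). With 1 array left out 0 to 1 of these were called. The median of folding genes, 0.51, was 0.40 with normexp correction and 0.44 to 0.61 with 1 array left out, and that of sensors and effectors 0.16 to 0.22. Leaving out either array of design 028005 takes its partner out of the comparison too. The cause of these changes was not tested, except that fewer arrays entered some fits.

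Dnajb9 changed sign, to -0.15 with normexp correction, -0.088 with the percentile over detected probes, -0.17 with the mean of all probes, -0.25 on design 026655 alone, -0.23 in the authors' deposited values, and to -0.025 without skin replicate 1, -0.25 without skin replicate 3, -0.066 without wound replicate 1 and -0.25 without wound replicate 3. Of the values of single genes under alternatives, 471 kept sign and side of the threshold, 94 lost their call and 2 gained one. The 94 all belong to the 17 called genes, since the 19 genes not called had no call to lose. These counts use all 16 alternatives per gene, so fits that repeat design 026655 alone count more than once. Replicates 1 and 2 share only a number between groups, and their deviations on design 026655 correlated at 0.15 across genes. With the replicate number as a block 12 of the 36 genes, 9 of them folding genes, were called higher, and Calr, Sdf2l1 and Herpud1 lost their calls.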
